A study of Mus musculus with 32 samples.

Results

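The messenger RNAs of the cytosolic ribosomal proteins were followed in mouse oocytes, preimplantation embryos and embryonic stem cells. Members of the family were the protein-coding genes of the mouse GENCODE annotation (GRCm38, the build also called mm10) whose symbol begins with Rps, for the small or 40S subunit, or Rpl, for the large or 60S subunit, followed by the usual number or letter. The rule found 82 of the 55335 gene rows of the tables, 32 of the 40S and 50 of the 60S subunit, and it used no measured value. It took in the paralogous copies Rps27l, Rpl3l, Rpl10l, Rpl36al and Rpl39l, and left out the mitochondrial ribosomal proteins and the 294 rows of ribosomal protein pseudogenes. RNA was read in 32 libraries, 2 for each of 16 groups. Growing oocytes of the H3.3K4M and H3.3WT transgenic genotypes came from ovaries at postnatal day 14 (P14); the promoter of the transgene is not given in the sources used here, and both groups carry one. Mature oocytes arrested at metaphase II (MII) came from wild-type females of 12 months (12m) or 8 weeks (8w), with no treatment. All embryos were wild type and, by their titles, made by in vitro fertilisation. Embryos at 2 cells (2C) came from 12-month females with no treatment, or from females of 6 to 8 weeks after culture with aphidicolin (APH), cycloheximide (CHX), MG132 or the vehicle DMSO. Embryos at 4 cells (4C) came from females of 6 to 8 weeks after culture with aphidicolin, cycloheximide, MG132 or DMSO. Embryonic stem cells (ESC) of the wild-type line AB2.2 received cycloheximide, MG132 or DMSO. Aphidicolin inhibits replicative DNA polymerases, cycloheximide blocks the translocation step of translation, and MG132 inhibits the proteasome. The labels used here state no dose and no time of treatment; the titles of all stem cell samples carry the word Long, which the labels do not explain. Whether the 2 libraries of a group came from separate cultures or animals is not labelled; p values therefore cover the spread between libraries, and that spread may be technical.

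A ribosome holds nearly all of its core proteins in equal numbers, the paired stalk proteins apart, and in mammals each is made from its own gene rather than from an operon. Many of these genes share a start site inside a run of pyrimidines, which gives their messages a 5′ terminal oligopyrimidine (TOP) sequence through which the mTOR pathway and the LARP proteins govern their translation and stability. Mouse oocytes store ribosomes and messages while they grow and are nearly silent in transcription from the end of growth until the genome of the embryo is activated, mainly at the 2-cell stage. Ribosomal protein and ribosome biogenesis genes are among those known to be transcribed from that activation on.

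Windows around the annotated start of 6 members are printed because the results turn on them. Rps27 and its paralogue Rps27l, and Rpl39 and its paralogue Rpl39l, are pairs whose balance differed widely between stages, Rpl38 had one of the largest differences between 4-cell and 2-cell embryos, and Rps6 is a substrate of S6 kinase much used as a readout of mTOR signalling. Each runs from 60 bases before the start to 20 bases into the transcript, 5′ to 3′ on the gene's strand, from RefSeq on GRCm38.p6. Capitals mark the longest pyrimidine run, a C followed by at least 5 bases that are each C or T, in the 20 bases on either side of the start, and the first where runs are equally long. The search was made on the strand of the gene only, and a shorter or later run may remain in lower case. The window of another RefSeq start of Rps27l, chr9:66946353-66946432, held no such run and is not printed.
Rps27, chr3:90213629-90213708, minus strand: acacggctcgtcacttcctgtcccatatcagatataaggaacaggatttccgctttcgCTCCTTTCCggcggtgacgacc
Rps27l, chr9:66946026-66946105, plus strand: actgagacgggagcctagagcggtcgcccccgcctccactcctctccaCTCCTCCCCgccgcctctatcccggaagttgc
Rpl39, chrX:37085203-37085282, minus strand: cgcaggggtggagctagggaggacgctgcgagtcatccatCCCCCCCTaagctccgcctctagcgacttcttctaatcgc
Rpl39l, chr16:10170168-10170247, plus strand: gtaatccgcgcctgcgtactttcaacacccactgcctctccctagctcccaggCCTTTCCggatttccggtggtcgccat
Rpl38, chr11:114668520-114668599, plus strand: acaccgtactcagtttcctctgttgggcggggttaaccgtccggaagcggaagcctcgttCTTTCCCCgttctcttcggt
Rps6, chr4:86857348-86857427, minus strand: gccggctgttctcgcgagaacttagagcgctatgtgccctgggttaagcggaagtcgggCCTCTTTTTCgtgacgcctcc
Such a run is common, since 9652 of 32851 RefSeq start windows (29.4%) held one, and a match is a description of the letters only. RefSeq windows were matched for 62 of the 82 members, too few to give a share for the family. The start of the principal GENCODE transcript was known for all 82: a C followed by 4 pyrimidines stood exactly at it in 10 members, or 12.2%, 3 of the 40S and 7 of the 60S subunit, and in 491 of 21814 protein-coding genes, or 2.25%. Rpl38 and Rps6 were not among the 10, although a run stands at or across their RefSeq start. The count thus depends on the annotated first base and is not a count of TOP messages. The messages were short, with a median coding length of 454.5 bases, against 1158 bases over protein-coding genes, and a median transcript length of 789.5 bases, against 2493 bases. The coding sequences of Rps27 and Rps27l, 252 bases each, were identical at 76.2% of aligned positions, those of Rpl39 and Rpl39l, 153 bases each, at 85.0%, and those of Rpl10 and Rpl10l at 84.7%. Rpl36a and Rpl36al were identical at 87.7% and Rpl3 and Rpl3l at 73.2%. In none of the 5 pairs did the transcripts share a run of 50 bases. How reads with several positions were counted is not given in the sources used here, so members with pseudogenes remain uncertain, as do the 22 members whose exons overlap another gene, such as Rps2, Rpl5, Rps27a and Rpl10a.

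Libraries held 14313718 counts (2-cell aphidicolin, replicate 1) to 34713159 counts (4-cell aphidicolin, replicate 2). Levels are given as CPM, counts per 1000000 gene counts of a library, or as RPKM, CPM per 1000 bases of the principal transcript where genes are compared with each other. The set of oocyte markers summed to 50160 to 53805 CPM in P14 oocytes and to 13419 to 14935 CPM in MII oocytes. Its member Zp3 had 14028 to 15178 CPM in P14 oocytes but only 33.7 to 111 CPM in MII oocytes. In vehicle 4-cell embryos Zp3 had 36.9 and 47.5 CPM. Genes of the 2-cell stage such as Zscan4c summed to 767 and 1175 CPM in vehicle 2-cell embryos, and pluripotency genes such as Pou5f1 to 3914 to 4606 CPM in stem cells. Markers of cumulus and granulosa cells summed to 80.2 to 113 CPM in MII oocytes, with Amh at 0, and markers of fibroblasts, which serve as feeder cells, to 629 to 1394 CPM in stem cells and at most 27.5 CPM elsewhere. Sperm markers stayed at or below 21.6 CPM. The replicates of MG132 stem cells, of aphidicolin 2-cell embryos and of aphidicolin 4-cell embryos stood apart from each other in this family, with the shares given in the next paragraph. Libraries of oocytes and embryos were built by Smart-seq2, which amplifies cDNA from low input, and those of stem cells with a TruSeq kit after poly(A) capture, so the kit cannot be told apart from the step between embryos and stem cells. Both methods read polyadenylated RNA, and no spike-in is stated, so a level says only how a gene stands within its own library, and fewer cells and less RNA per cell cannot be told apart.

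The share of all gene counts taken by the family separated the stages. It was 1.35% and 1.45% in H3.3K4M and 1.38% and 1.29% in H3.3WT growing oocytes, 0.454% and 0.430% in 12-month and 0.435% and 0.449% in 8-week MII oocytes, and 0.470% and 0.467% in vehicle 2-cell embryos. In vehicle 4-cell embryos it was 10.3% and 10.2%. The family thus took the smallest shares in MII oocytes and 2-cell embryos, and the 4-cell share, 10.3% ± 0.0236, was 21.9 times that of 2-cell embryos, 0.469% ± 0.00276 (SD, n = 2 each). In vehicle stem cells the share was 8.15% and 8.04%. Among drug groups of the 4-cell stage it was 3.35% and 3.76% with cycloheximide, 6.71% and 6.56% with MG132 and 9.88% and 7.22% with aphidicolin. At 2 cells it was 0.293% and 0.362% with cycloheximide, 0.302% and 0.405% with MG132, 0.267% and 0.423% with aphidicolin, and 0.364% and 0.384% in untreated embryos of 12-month females. All of these lay below the vehicle libraries of their stage. Without Rps27l this did not hold for MG132 at 2 cells, with 0.247% and 0.357% against 0.352% and 0.314% in vehicle 2-cell embryos; the ratio of the group means was 0.755 with Rps27l and 0.905 without it. In stem cells the order differed: 10.6% and 9.86% with cycloheximide lay above the vehicle, and 9.14% and 6.44% with MG132 lay on either side of it. These shares are given as a description: with 2 libraries a group an exact permutation test cannot go below p = 0.333, and no other test was run on them. Pseudogenes of the family took 0.156% of gene counts in vehicle 4-cell and 0.0103% in vehicle 2-cell embryos.

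**Figure D1:**
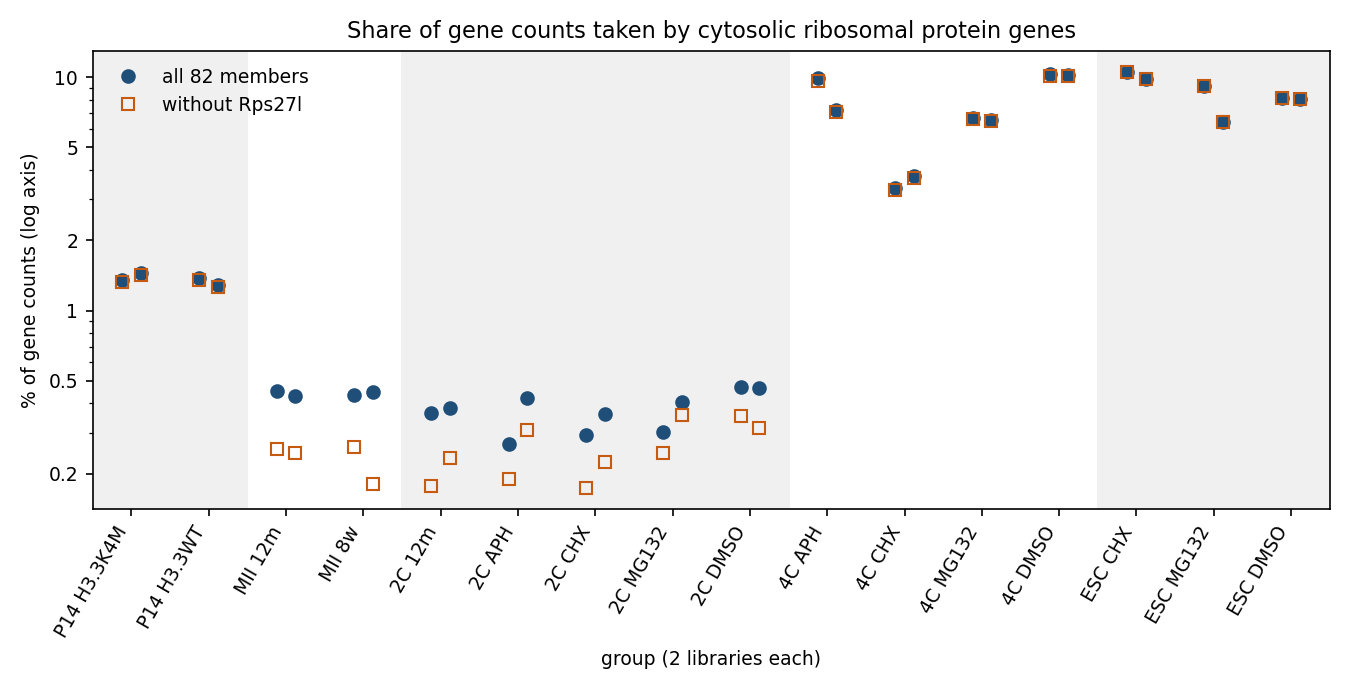
Share of gene counts taken by the 82 ribosomal protein genes (percent, log axis) in each of the 32 libraries, by group; filled points are libraries with all members, and open squares the same libraries without Rps27l. With all members the 4-cell groups and stem cells lie between 3.35% and 10.6%, the P14 oocytes between 1.29% and 1.45%, and the MII oocytes and 2-cell groups between 0.267% and 0.470%.

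Most members were detected at every stage, and what differed was their level. In P14, 4-cell and stem cell libraries at least 80 of the 82 reached 10 CPM. In MII oocytes 37 to 49 did, and in 2-cell embryos 31 (cycloheximide, replicate 1) to 74 (vehicle, replicate 1). The median member stood at 98.7 CPM in H3.3K4M and 97.0 CPM in H3.3WT growing oocytes, 10.5 CPM in 12-month and 9.47 CPM in 8-week MII oocytes, 28.8 CPM in vehicle 2-cell embryos, 1073 CPM in vehicle 4-cell embryos and 869 CPM in vehicle stem cells. Messages of the family were unequal in level, by ratios that also depend on the transcript length each count was divided by. The member at the 90th percentile stood above the one at the 10th percentile by 50.4-fold in RPKM in 8-week MII oocytes, 13.6-fold in H3.3WT growing oocytes, 6.00-fold in vehicle 2-cell embryos, 10.98-fold in vehicle 4-cell embryos and 7.01-fold in vehicle stem cells. The median 40S member lay above the median 60S member in all of these, at 1853 against 1061 RPKM in vehicle 4-cell embryos, 42.8 against 27.9 RPKM in vehicle 2-cell embryos, 118 against 113 RPKM in H3.3WT growing oocytes and 1304 against 986 RPKM in vehicle stem cells.

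The leading genes changed with the stage. In growing oocytes Rpl17 was among the highest members, with 836 ± 78.1 RPKM in H3.3K4M and 796 ± 62.3 RPKM in H3.3WT oocytes (SD, n = 2), together with Rpl41 in H3.3K4M and Rpl5 in H3.3WT oocytes. In MII oocytes a single gene stood far above the rest, the 40S paralogue Rps27l, known in human and mouse cells as a target of p53, with 3836 ± 211 RPKM at 12 months and 4426 ± 1330.1 RPKM at 8 weeks. The next were Rpl41 and Rpl32 at 12 months, with 239 ± 89.7 and 225 ± 7.03 RPKM, and Rpl17 and Rpl32 at 8 weeks, with 249 ± 101 and 141 ± 1.06 RPKM. Rps27l led in vehicle 2-cell embryos as well, with 2712 ± 481 RPKM, ahead of Rpl41, which encodes a peptide of exceptional shortness, with 318 ± 81.5 RPKM, and of Rplp0, the base of the ribosomal stalk, with 236 ± 78.6 RPKM. In vehicle 4-cell embryos Rpl41 led with 19260.5 ± 2878 RPKM, before Rps29 with 5773 ± 167 and Rps27 with 5533 ± 746 RPKM. Vehicle stem cells had yet other leaders, the stalk gene Rplp1 with 3916 ± 32.3, Rpl13 with 3622 ± 32.9 and Rps2 with 3106 ± 167 RPKM.

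Among the lowest members were the copies Rpl3l and Rpl10l, beside ordinary members. Rpl3l, the form of Rpl3 found in heart and skeletal muscle, was the lowest member in every group but 2 and second lowest in cycloheximide 2-cell and 4-cell embryos, where Rpl10l was lower, and it reached 14.05 ± 1.72 RPKM in vehicle 4-cell embryos. Rpl10l, an autosomal copy of the X-linked Rpl10 that male mice need for meiosis, stood at 0.114 ± 0.161 RPKM in 8-week MII oocytes, 11.5 ± 1.14 RPKM in H3.3WT growing oocytes and 68.7 ± 2.99 RPKM in vehicle 4-cell embryos. In vehicle 2-cell embryos the 3 lowest were Rps20, with 9.08 ± 1.64 RPKM, Rpsa, which encodes the laminin receptor precursor protein of the small subunit, with 3.31 ± 2.79 RPKM, and Rpl3l. In vehicle stem cells they were Rps15a, Rpl39l with 38.5 ± 2.67 RPKM and Rpl3l. These ranks depend on the transcript length used. The principal transcript of Rps20 has 3706 bases, 357 of them coding, and that of Rps15a 5179 bases, 390 of them coding. In counts Rps20 was not low in vehicle 2-cell embryos, at 33.6 CPM against 28.8 CPM for the median member. As a description of the order over the 82 members, which share library and length estimates, Spearman's rho was 0.665 between vehicle 2-cell embryos and 8-week MII oocytes, 0.526 between vehicle 4-cell and vehicle 2-cell embryos and 0.129 between vehicle stem cells and vehicle 4-cell embryos.

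The balance between the subunits depended on Rps27l. Counts per kilobase of merged exons gave the 40S genes 44.9% ± 0.740 of the family in vehicle 4-cell embryos and 63.6% ± 4.39 in vehicle 2-cell embryos, 18.7 percentage points less in the 4-cell embryos (SD, n = 2 each). In MII oocytes the 40S share was 73.4% ± 2.03 at 12 months and 79.7% ± 7.98 at 8 weeks, in growing oocytes 31.7% in H3.3K4M and 32.6% in H3.3WT, and in vehicle stem cells 38.6%. Rps27l alone took 43.3% of all ribosomal protein counts in 12-month and 49.9% ± 13.9 in 8-week MII oocytes, 28.9% ± 5.29 in vehicle 2-cell embryos, 1.48% in vehicle 4-cell embryos, 0.167% in vehicle stem cells and 1.77% in H3.3WT growing oocytes. Without this gene the order of the stages turned round: the 40S share was 43.4% in vehicle 4-cell and 33.3% in vehicle 2-cell embryos, 10.05 points more in the 4-cell embryos, and without all 5 paralogue pairs it was 8.82 points more. Also without Rps27l it was 31.5% in 12-month and 36.2% in 8-week MII oocytes and 38.4% in vehicle stem cells. With all members, at 4 cells the share was 44.1% with aphidicolin, 43.2% with cycloheximide, 44.4% with MG132 and 44.9% with the vehicle. At 2 cells it was 61.1% with aphidicolin, 72.7% with cycloheximide, 49.5% ± 7.10 with MG132 and 75.4% in untreated embryos of 12-month females, and without Rps27l 29.2%, 36.7%, 31.5% and 34.0% in the same order. In stem cells it was 39.6% with cycloheximide and 38.7% with MG132. These shares are given as a description, with no test.

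**Figure D2:**
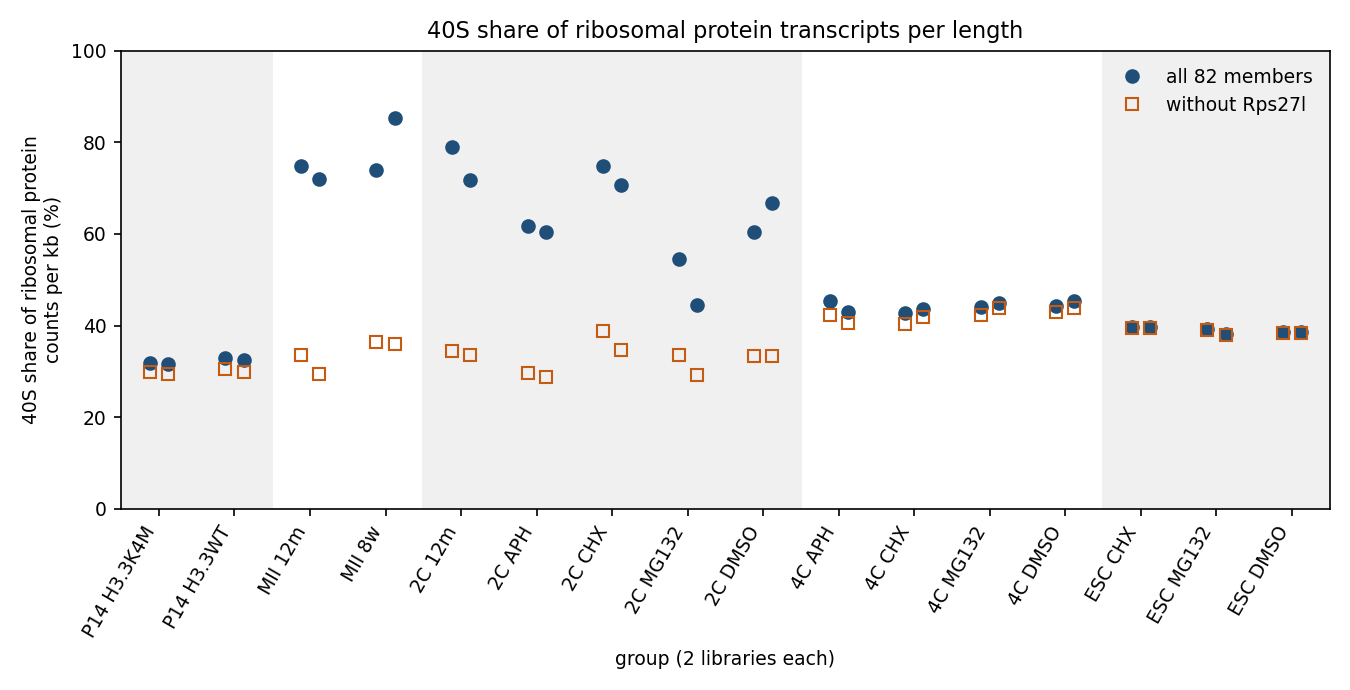
Share of ribosomal protein transcripts per length that came from 40S genes (percent) in each of the 32 libraries, with all members and without Rps27l; points are libraries. With all members the MII oocytes and the untreated 12-month 2-cell embryos have the highest group means, 73.4% to 79.7%, and without Rps27l the vehicle 4-cell embryos, at 43.4%, lie above the vehicle 2-cell embryos, at 33.3%.

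Rps27 (ENSMUSG00000090733, chr3:90212522-90213651) and Rps27l (ENSMUSG00000036781, chr9:66946086-66949516) exchanged places between the stages. Rps27l had 194 and 212 CPM in H3.3K4M and 238 and 234 CPM in H3.3WT growing oocytes, 1989 and 1839.7 CPM in 12-month and 1739 and 2678 CPM in 8-week MII oocytes, 1183 and 1523 CPM in vehicle 2-cell and 1464 and 1565 CPM in vehicle 4-cell embryos. Rps27 had 118 and 127 CPM in H3.3K4M and 159 and 133 CPM in H3.3WT growing oocytes, 10.6 and 2.21 CPM in 12-month and 7.35 and 0.898 CPM in 8-week MII oocytes, 7.12 and 2.54 CPM in vehicle 2-cell and 1727 and 2091 CPM in vehicle 4-cell embryos. Per length, Rps27l made up at least 99.1% of the pair in every MII and 2-cell library, 50.9% and 54.8% in H3.3WT growing oocytes, 37.0% and 34.1% in vehicle 4-cell embryos and 23.98% and 24.15% in vehicle stem cells, where it had 134 and 136 CPM. Rps27l was the one member that did not pass the test between vehicle 4-cell and vehicle 2-cell embryos, with a log2 fold change of 0.60 ± 0.31 (SE; adjusted p = 0.131).

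The balance of the other pairs also varied between stages, as a description with no test. Rpl39l, a copy of the exit-tunnel protein gene Rpl39 that is enriched in testis, made up 81.1% and 75.1% of its pair in 12-month and 63.6% and 74.1% in 8-week MII oocytes, 58.9% and 65.3% in 2-cell embryos given the vehicle, 28.8% and 27.9% in vehicle 4-cell embryos and 6.49% and 7.21% in vehicle stem cells. Rpl39 had 1515 and 1473 CPM in vehicle 4-cell and 17.2 and 22.4 CPM in vehicle 2-cell embryos, and Rpl39l 807 and 749 CPM in vehicle 4-cell and 32.3 and 55.4 CPM in vehicle 2-cell embryos. Rpl36al made up 73.0% and 77.1% of its pair in H3.3WT growing oocytes, and 51.3% and 53.4% in vehicle 4-cell embryos. In vehicle stem cells it made up 20.1% and 19.6%. In MII oocytes it made up 39.3% and 48.6% at 12 months and 62.5% and 33.1% at 8 weeks. At 2 cells it made up 66.3% and 53.8% with the vehicle and 48.8% and 31.2% in embryos of 12-month females. Among these, Rpl36a led in stem cells, in 12-month oocytes and 2-cell embryos, and in the second 8-week oocyte library. Rpl10l stayed the minor form throughout, with its largest part in vehicle 2-cell embryos, 19.6% and 10.3%, and vehicle stem cells, 14.51% and 13.97%. Rpl3l was the minor form in every library too, with 32.4% and 27.9% of its pair with cycloheximide and 16.7% and 27.0% with MG132 at 4 cells, against 4.42% and 3.43% in vehicle 4-cell embryos.

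**Figure D3:**
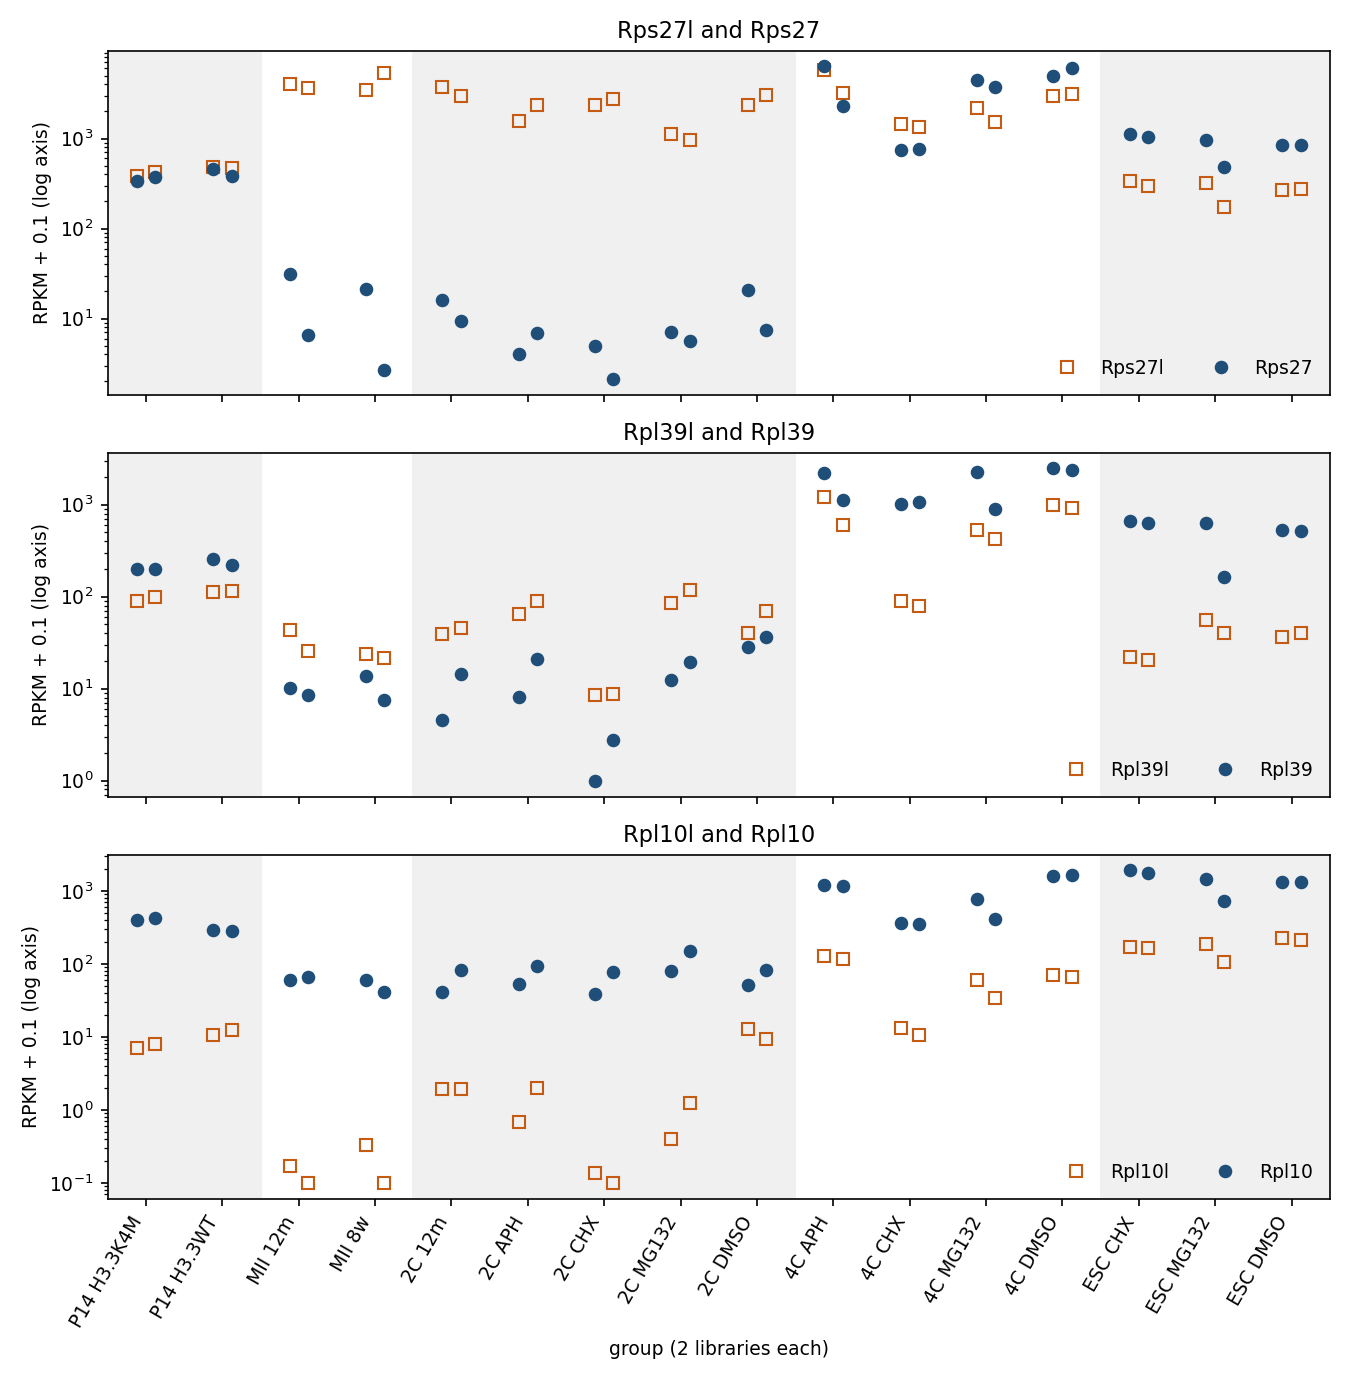
Level of 3 paralogues (open squares) and their partner genes (filled points) in RPKM plus 0.1, on a log axis, in each of the 32 libraries. Rps27l lies far above Rps27 in all MII and 2-cell libraries, where it makes up at least 99.1% of the pair, and below it in vehicle 4-cell embryos and stem cells.

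Once libraries were scaled by edgeR, the family did not move as a whole between MII oocytes and 2-cell embryos: some messages rose while others fell. From here a gene is called higher or lower when edgeR's quasi-likelihood F-test gives an adjusted p under 0.05, with Benjamini-Hochberg adjustment over all genes tested, and log2 fold changes carry their standard error. They include edgeR's scaling between libraries and so differ from plain CPM ratios, by a median over members with at least 500 counts in both groups of -1.04 between vehicle 2-cell embryos and 8-week oocytes, -0.63 in the same step at 12 months, 0.44 between vehicle 4-cell and vehicle 2-cell embryos, 0.56 for cycloheximide at 2 cells and -0.58 for cycloheximide at 4 cells. In the other direct comparisons the gap was between -0.25 and 0.33. Set against 8-week MII oocytes, vehicle 2-cell embryos had 21 members called higher and 17 lower among 82, with a background of 10.1% of genes higher and 10.1% lower. By subunit, 7 were higher and 6 lower of 32 in the 40S, and 14 higher and 11 lower of 50 in the 60S. The median log2 fold change was 0.22, against 0.33 over all genes tested. In plain CPM, without this scaling, the median member stood at 28.8 in the embryos and 9.47 in the oocytes. The family share in the embryos was 1.06 times that in the oocytes with Rps27l and 1.51 times without it. Rpl3, close to the peptidyl transferase centre, had 35.1 and 23.1 CPM in the embryos and 0.817 and 0.337 CPM in the oocytes, a log2 fold change of 4.62 ± 0.56 (adjusted p = 0.000459). Rplp0 had 396 and 245 CPM in the embryos and 14.6 and 17.7 CPM in the oocytes (3.24 ± 0.36, adjusted p = 0.000283), and Rpl10a 78.2 and 26.1 CPM in the embryos and 2.76 and 0.824 CPM in the oocytes (3.85 ± 0.76, adjusted p = 0.00659). In the oocytes Rpl3 was near the bottom of the family in RPKM, at rank 80, Rpl10a at rank 72 and Rplp0 at rank 44 of 82. Rpl10l rested on 506 counts in the embryos and 6 in the oocytes (5.56 ± 0.85, adjusted p = 0.00175). Rpl3l had 35 counts in the embryos and 0 in the oocytes, which makes it at least 13.7-fold higher in the embryos with a floor of 3 counts over the group. Such floors, like all intervals here, cover counting error only, since these reads carry no molecular identifiers.

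Among those that fell, Rpl5, which with Rpl11 carries the 5S ribosomal RNA and can bind Mdm2, had 20.2 and 20.6 CPM in vehicle 2-cell embryos and 63.6 and 43.4 CPM in 8-week MII oocytes (-2.43 ± 0.25, adjusted p = 0.000208). Rpl11 was called lower too (-1.23 ± 0.32, adjusted p = 0.0240), but its CPM overlapped, at 39.9 and 22.9 in the embryos and 39.5 and 31.8 in the oocytes, and the call was lost with genes alone in the scaling. Rpl13 had 25.4 and 17.6 CPM in the embryos and 60.9 and 46.2 CPM in the oocytes (-2.36 ± 0.31, adjusted p = 0.000686), and Rpl34 16.6 and 26.2 CPM in the embryos and 56.4 and 40.8 CPM in the oocytes (-2.22 ± 0.32, adjusted p = 0.00114). The groups did not overlap for Rpl5, Rpl13 and Rpl34. In all, 8 of the 17 members called lower had CPM that overlapped between the groups, and for Rpl37a the mean CPM was higher in the embryos, so these calls were made on scaled values. Rps27l fell as well (-1.78 ± 0.32, adjusted p = 0.00393). Oocyte markers were lower in the same embryos, 5 of the 8 being called, while all 5 genes of the 2-cell stage were called higher, and the part of this change of content in the members' differences was not tested. With genes alone, without repeats, in the scaling, the median of all genes shifted by 0.308.

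The same step in material from 12-month females compared other libraries than the step above. Both came from the same fit, so scaling and the estimate of the spread were shared. Embryos at 2 cells had 6 members called higher and 20 lower than MII oocytes, against a background of 5.8% and 6.76%. None of the 40S genes was called higher and 9 were called lower, and of the 60S genes 6 were called higher and 11 lower. The median member was at -0.50, against 0.19 over all genes. Rplp0 had 104 and 171 CPM in the embryos and 28.8 and 18.8 CPM in the oocytes (1.89 ± 0.34, adjusted p = 0.00536), and Rpl10a 30.4 and 23.0 CPM in the embryos and 4.34 and 0.958 CPM in the oocytes (2.74 ± 0.73, adjusted p = 0.0343). Without the second oocyte library these calls were lost, with adjusted p = 0.0604 for Rplp0 and 0.167 for Rpl10a, and Rpl10a was also lost without the first embryo library (0.106). Rpl3 (2.05 ± 0.48) and Rpl8 (1.59 ± 0.40) were the others at higher counts, and Rpl3 lost its call without either embryo library or without the second oocyte library. Rpl10l had 85 counts in the embryos and 2 in the oocytes, 50.5-fold higher (95% exact interval 13.6 to 424), and Rpl3l 73 in the embryos and 1 in the oocytes, 86.7-fold higher (15.1 to 3473). Lower in the embryos were Rpl34 (-2.50 ± 0.32, adjusted p = 0.000950) and Rpl13, with 8.13 and 13.6 CPM in the embryos and 29.5 and 38.6 CPM in the oocytes (-2.30 ± 0.31, adjusted p = 0.00118). The count of 26 depended on single libraries: it was 9 without the first embryo library, 17 without the second, and 12 without the second oocyte library. With genes alone in the scaling, 6 were called higher and 11 lower.

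Between 2 and 4 cells nearly the whole family rose together. Vehicle 4-cell embryos had 81 of the 82 members called higher and 0 lower than vehicle 2-cell embryos, while 19.6% of all genes tested were called higher and 29.4% lower. The median log2 fold change was 5.62, 5.73 for the 40S and 5.49 for the 60S members, against -0.57 over all genes. Every member had a positive change, between 0.60 and 9.07. The test by DESeq2 called all 82 higher, and leaving out any 1 library left 81. Rps27 showed the largest change, 9.07 ± 1.159 (adjusted p = 0.000132), with the CPM given above. Rpl38, which mice need for the translation of Hox messages, had 1197 and 1307 CPM in 4-cell and 6.29 and 6.98 CPM in 2-cell embryos (8.00 ± 0.53, adjusted p = 3.04e-06). Rpl9 had 1778 and 2017 CPM in 4-cell and 17.1 and 6.33 CPM in 2-cell embryos (7.79 ± 1.01, adjusted p = 0.000141).

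The size of the rise differed between members. The smallest called change was that of Rps2, 2.48 ± 0.46. Rplp0, already at rank 3 in RPKM at 2 cells, had 1286 and 1495 CPM in vehicle 4-cell and 396 and 245 CPM in vehicle 2-cell embryos (2.56 ± 0.34). The other stalk genes had larger values, Rplp1 5.69 ± 0.56 and Rplp2 3.46 ± 0.27. Rpl41 had 12394 and 10025 CPM in 4-cell and 219 and 152 CPM in 2-cell embryos (6.37 ± 0.54), Rps6 1459.8 and 1583 CPM in 4-cell and 48.2 and 27.6 CPM in 2-cell embryos (5.77 ± 0.44), and Rpsa 312 and 326 CPM in 4-cell and 10.2 and 2.59 CPM in 2-cell embryos (6.09 ± 0.68). Rps27a, which makes its protein as a fusion with ubiquitin, changed by 5.67 ± 0.44, Rps4x, an X-linked 40S gene, by 5.69 ± 0.29, Rpl5 by 6.16 ± 0.30 and Rpl11 by 5.44 ± 0.38. Across the 82 members, which share their libraries, Spearman's rho of the log2 fold change was -0.41 with transcript length and -0.27 with coding length. The 10 members with a pyrimidine run exactly at the GENCODE transcript start had a median of 5.19, and the other 72 a median of 5.69. The 72 include Rpl38 and Rps6, so TOP messages are not set apart from others here. DESeq2 size factors moved the median of all genes by 0.215 in this comparison, and scaling on genes alone by -0.16. Oocyte markers summed to 139 and 159 CPM in vehicle 4-cell and 5729 and 6738 CPM in vehicle 2-cell embryos, and markers of the 4-cell stage on to 5131 and 6408 CPM in vehicle 4-cell and 71.4 and 146 CPM in vehicle 2-cell embryos; their part in the change of the family was not tested.

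**Figure D4:**
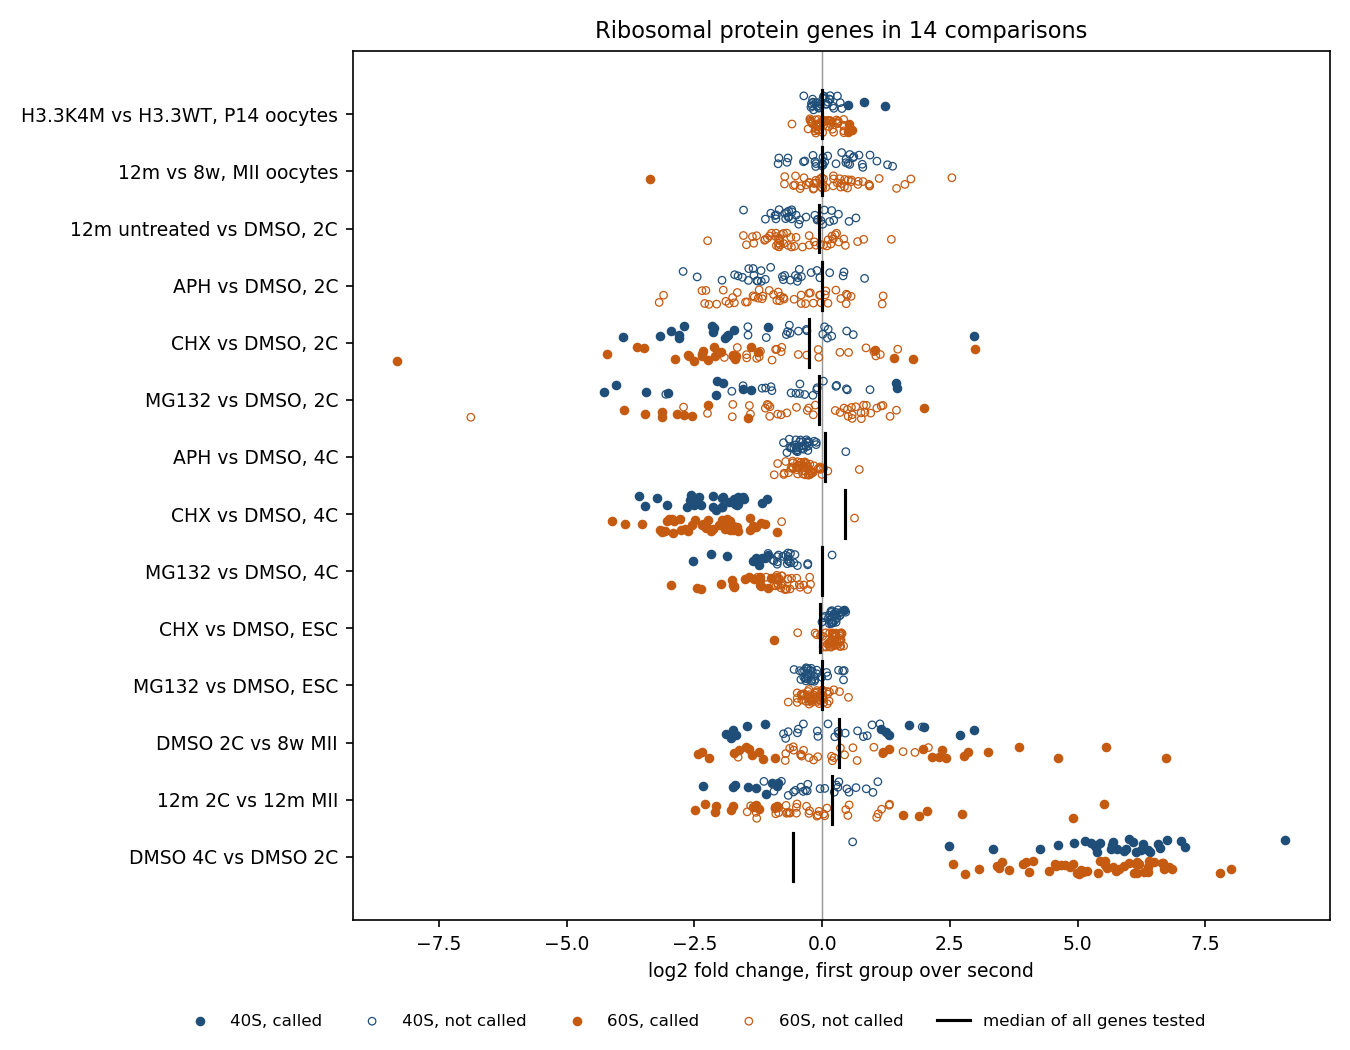
Log2 fold change of each ribosomal protein gene (points; 40S and 60S apart) in the 14 direct comparisons, filled where called, with a bar at the median of all genes tested. The first-named group stands over the second. Vehicle 4-cell against vehicle 2-cell embryos stands apart with a member median of 5.62, and cycloheximide at 4 cells lies at -2.10.

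Few members were called between materials from females of different age. In MII oocytes, 12-month against 8-week females, 0 members were called higher by edgeR and 1 lower among 80 tested, with a background of 0.272% higher and 0.53% lower. The unadjusted p was under 0.05 for 4 higher and 3 lower, and DESeq2 called 1 higher and 1 lower. The unadjusted and DESeq2 counts have no matching share over all genes and are not read as a result about the family. The median member was at 0.16 and the median gene at -0.01. Rpl37 had 10.7 and 6.19 CPM at 12 months and 111 and 56.3 CPM at 8 weeks (-3.37 ± 0.43, adjusted p = 0.0341). Its copy Rpl37rt lies outside the rule and had 0.302 and 0.295 CPM at 12 months and 348 and 203 CPM at 8 weeks. At 2 cells Rpl37rt had 1.42 and 1.55 CPM in embryos of 12-month females and 39.5 and 71.8 CPM in vehicle embryos. Reads of these copies may not be separable. The call of Rpl37 was lost without either 12-month library (adjusted p = 0.0858 and 0.285). Leaving out the first 8-week library called 4 members and leaving out the second called 3.

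At 2 cells, untreated embryos of 12-month females against vehicle embryos of females of 6 to 8 weeks had 0 members called higher and 0 lower by edgeR, with 0.469% of genes called higher and 0.746% lower. Unadjusted, 1 member was higher and 17 lower at a p under 0.05, and DESeq2 called 0 higher and 1 lower. The matching shares over all genes are not given, so these counts are a description only. The lowest adjusted p was 0.168. The median member was at -0.60, against -0.07 over all genes, and 22 of 82 had a positive change. Rplp0 had 104 and 171 CPM in the older group's embryos and 396 and 245 CPM in vehicle embryos, and Rps27a 26.3 and 27.6 CPM in the older group's embryos and 65.2 and 48.2 CPM in vehicle embryos. The genes of the 2-cell stage summed to 367 and 399 CPM in the same embryos and 767 and 1175 CPM in the vehicle embryos, and their part in the difference was not tested. Age and the vehicle cannot be told apart here.

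The drug groups of the 2-cell stage share their vehicle libraries, as do those of the 4-cell stage and of stem cells, so their values stand side by side and are not independent. The vehicle 2-cell libraries also serve the comparisons with 8-week MII oocytes, with 12-month 2-cell embryos and with vehicle 4-cell embryos. Aphidicolin gave 0 members called higher and 0 lower by edgeR, with 0.00893% of genes called higher and 0.192% lower. With no adjustment, at p under 0.05, there were 3 higher and 34 lower, and DESeq2 called 0 higher and 18 lower. Neither count has a matching share over all genes beside it, so both are a description only. The median member was at -0.84, against -0.01 over all genes. The lowest adjusted p was 0.0599, for Rps27a, with 12.0 and 8.76 CPM with aphidicolin and 65.2 and 48.2 CPM with the vehicle (-2.44 ± 0.44). Without the second aphidicolin library, the deeper one, 1 member was called, and with the replicate block 2 were called lower. The first aphidicolin library was the shallowest of all, and its median member stood at 10.4 CPM, against 17.0 CPM in the second.

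Cycloheximide split the family at 2 cells: a few messages rose and many fell. It had 5 members called higher and 35 lower than the vehicle, with 11% of genes called higher and 13% lower. By subunit, 1 was higher and 14 lower of 32 in the 40S, and 4 higher and 21 lower of 50 in the 60S. The median was -1.33 (-1.08 for the 40S and -1.43 for the 60S members), against -0.26 over all genes. Rpl13 had 94.2 and 137 CPM with cycloheximide and 25.4 and 17.6 CPM with the vehicle (2.99 ± 0.36, adjusted p = 0.000244). Rpl17 (1.78 ± 0.41), Rpl5 (1.42 ± 0.36) and Rpl4 (1.04 ± 0.34) were also called higher, and Rpl17 lost its call without the first vehicle library (adjusted p = 0.0575), Rpl5 without that library, the second vehicle or the first cycloheximide library, and Rpl4 without any 1 library.

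Among the members that fell with cycloheximide, Rps20 had 1.12 and 1.90 CPM with the drug and 37.9 and 29.3 CPM with the vehicle (-3.90 ± 0.55, adjusted p = 0.000580), and Rpl10a 1.70 and 2.10 CPM with the drug and 78.2 and 26.1 CPM with the vehicle (-4.20 ± 0.71, adjusted p = 0.00165). Rpl10l had 1 count with cycloheximide and 506 with the vehicle, 586-fold higher in the vehicle embryos (95% exact interval 105 to 23195). The groups were far apart for each. Rplp0 had 47.2 and 38.3 CPM with the drug (-2.33 ± 0.38, adjusted p = 0.00129), Rps27a 4.77 and 5.12 CPM (-2.95 ± 0.45, adjusted p = 0.000914), and both copies of the exit-tunnel gene fell, Rpl39 (-3.62 ± 0.74) and Rpl39l (-2.10 ± 0.36). The direction at 2 cells can be set beside the step from MII oocytes in 12-month material, whose compared groups share no library with it. Both fits held the vehicle and the 12-month 2-cell libraries, so their scaling and estimates of the spread were not independent. Rpl13 was at 2.99 with cycloheximide and -2.30 in that step, Rplp0 at -2.33 and 1.89, and Rpl10a at -4.20 and 2.74. Others moved the same way in both, such as Rpl34, at -2.88 with cycloheximide and -2.50 in that step. Over all 82 members 41 had opposite signs, and of the 13 called in both comparisons 9 had opposite signs and 4 were lower in both. Over the 82 members, the RPKM of cycloheximide embryos had a Spearman's rho of 0.790 with those of 8-week MII oocytes and 0.624 with those of vehicle 2-cell embryos, as a description. Oocyte markers summed to 9530 and 16600 CPM with cycloheximide and 5729 and 6738 CPM with the vehicle, and genes of the 2-cell stage to 2.94 and 4.70 CPM with cycloheximide and 767 and 1175 CPM with the vehicle; their part in the result was not tested. The count of 40 fell to 22, 2 higher and 20 lower, without the first vehicle library, and was 48 with the replicate block.

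MG132 at 2 cells had 3 members called higher and 18 lower, with 5.1% of genes called higher and 4.68% lower. In the 40S, 2 were higher and 9 lower, and in the 60S, 1 and 9. The median was -0.56, against -0.07 over all genes. Rps3, which lines the entry channel of the messenger RNA, had 1.31 and 1.44 CPM with MG132 and 34.0 and 19.1 CPM with the vehicle (-4.27 ± 0.69, adjusted p = 0.00317). Rps19, mutated in human Diamond-Blackfan anaemia, had 3.16 and 0.863 CPM with MG132 and 48.2 and 16.6 CPM with the vehicle (-4.03 ± 0.80, adjusted p = 0.00899). Rps27a had 3.0025 and 7.48 CPM with MG132 (-3.44 ± 0.46, adjusted p = 0.00120), and Rpl10l 0.308 and 1.19 CPM (-3.89 ± 0.93, adjusted p = 0.0223). Rps27l was lower too, with 555 and 482 CPM with MG132 and 1183 and 1523 CPM with the vehicle (-1.39 ± 0.31, adjusted p = 0.0166). Among the members called higher were Rpl36, with 17.4 and 34.0 CPM with MG132 and 5.81 and 6.88 CPM with the vehicle (2.00 ± 0.53, adjusted p = 0.0349), and Rps7, with 29.8 and 67.3 CPM with MG132 and 19.8 and 14.7 CPM with the vehicle (1.48 ± 0.41, adjusted p = 0.0427). Of these named genes, Rps3 and Rps27a kept their calls in every fit run, and each of the others lost its call without at least 1 library. The count of 21 was 27 with the replicate block, 7 without the first or the second MG132 library and 4 without the first vehicle library. Oocyte markers summed to 11053 and 12481 CPM with MG132, above the vehicle, and genes of the 2-cell stage to 17.6 and 42.8 CPM, below it; their part was not tested.

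At 4 cells almost the entire family was lower with cycloheximide. It had 0 members called higher and 80 lower than the vehicle, all 32 of the 40S and 48 of 50 of the 60S subunit, with 8.77% of genes called higher and 10.3% lower. The median was -2.10, the same within 0.03 for both subunits (-2.10 and -2.07), against 0.44 over all genes. Rpl39l had 72.9 and 63.9 CPM with cycloheximide and 807 and 749 CPM with the vehicle (-4.10 ± 0.38, adjusted p = 0.000466). Rpl36a had 71.6 and 62.3 CPM with cycloheximide and 699 and 577 CPM with the vehicle (-3.85 ± 0.47, adjusted p = 0.00123). Rps23, at the decoding centre, had 173 and 207 CPM with cycloheximide and 1589 and 1453 CPM with the vehicle (-3.59 ± 0.29, adjusted p = 0.000325). No library of one group reached into the range of the other. Rpl5 (-3.53 ± 0.25), Rps27 (-3.47 ± 0.46) and Rps6 (-3.03 ± 0.28) also fell, as did Rps27l (-1.71 ± 0.33, adjusted p = 0.00799). The 2 members not called were Rpl28, with 272 and 323 CPM with cycloheximide and 361 and 324 CPM with the vehicle (-0.79 ± 0.26, adjusted p = 0.0676), and the muscle form Rpl3l, with 47.0 and 43.8 CPM with cycloheximide and 21.0 and 17.6 CPM with the vehicle (0.63 ± 0.46, adjusted p = 0.349).

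The cycloheximide embryos still held far more of these messages than vehicle 2-cell embryos: Rps6, for example, had 253 and 306 CPM in them and 48.2 and 27.6 CPM in vehicle 2-cell embryos, and the median member stood at 300.4 CPM in them and 28.8 CPM in vehicle 2-cell embryos, a comparison of levels with no test. The order of the members was similar, with a Spearman's rho of 0.857 between cycloheximide and vehicle 4-cell embryos over the 82 members. Oocyte markers summed to 305 and 270 CPM with cycloheximide and 139 and 159 CPM with the vehicle, genes of the 2-cell stage to 284 and 485 CPM with cycloheximide and 57.2 and 31.7 CPM with the vehicle, and markers of the 4-cell stage on to 1882 and 1807 CPM with cycloheximide and 5131 and 6408 CPM with the vehicle. The part of these differences in content in the result was not tested. Leaving out a library gave 66 to 77 called members.

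MG132 at 4 cells had 0 members called higher and 26 lower, 9 of the 40S and 17 of the 60S subunit, with 3.06% of genes called higher and 4.33% lower. The median was -0.87 (-0.81 for the 40S and -0.88 for the 60S members), against 0.00 over all genes, and 81 of 82 had a negative change. Rpl3 had 86.1 and 57.4 CPM with MG132 and 445 and 488 CPM with the vehicle (-2.96 ± 0.28, adjusted p = 0.00286). Rps4x had 442 and 212 CPM with MG132 and 1666 and 1489.8 CPM with the vehicle (-2.54 ± 0.33, adjusted p = 0.00566), and Rpl36a 184 and 96.9 CPM with MG132 and 699 and 577 CPM with the vehicle (-2.45 ± 0.44, adjusted p = 0.0156). All 3 kept their calls in every fit run. Rpl5 (-2.37 ± 0.24), Rps27a (-1.23 ± 0.27) and Rps6 (-1.07 ± 0.27) also fell, and Rps27a and Rps6 lost their calls without the first MG132 library or either vehicle library, Rps27a also without the second MG132 library. The count of 26 was 13 without the first MG132 library or without either vehicle library, and DESeq2 called 50 lower.

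Aphidicolin at 4 cells had 0 members called higher and 0 lower by edgeR, and 0% of genes were called higher and 0% lower. With no adjustment, at p under 0.05, there was 1 higher and 10 lower among the members and 1846 over all genes, and DESeq2 called 0 higher and 0 lower. The lowest adjusted p was 0.556. The median member was at -0.38, against 0.05 over all genes, and 78 of 82 had a negative change. The 2 aphidicolin libraries differed from each other, with a family share of 9.88% and 7.22% and, for Rps27, 2184 and 801 CPM.

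The difference between a drug's effect at 4 cells and its effect at 2 cells was tested over the 18 embryo libraries, as the effect at 4 cells minus that at 2 cells. For cycloheximide 4 members were called higher and 29 lower, against a background of 14.3% and 6.65% of genes. In the 40S, 1 was higher and 11 lower, and in the 60S, 3 and 18. The median was -0.85, against 1.25 over all genes. Rpl5 rose at 2 cells and fell at 4 cells, with a difference of -4.89 ± 0.47 (adjusted p = 7.97e-06); its level at 4 cells was 133 and 147 CPM with cycloheximide and 1048 and 1108 CPM with the vehicle. Rpl13 likewise rose at 2 cells and fell at 4 cells (-4.14 ± 0.43, adjusted p = 1.23e-05). The 4 with a less negative effect at 4 cells were Rps20 (2.41 ± 0.58, adjusted p = 0.00746), Rpl10a (2.44 ± 0.78, adjusted p = 0.0350), Rpl12 (1.68 ± 0.54, adjusted p = 0.0360) and Rpl10l (5.25 ± 1.13, adjusted p = 0.00382), which rests on 1 count in cycloheximide 2-cell embryos. Leaving out a library gave 23 to 31 called members.

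**Figure D5:**
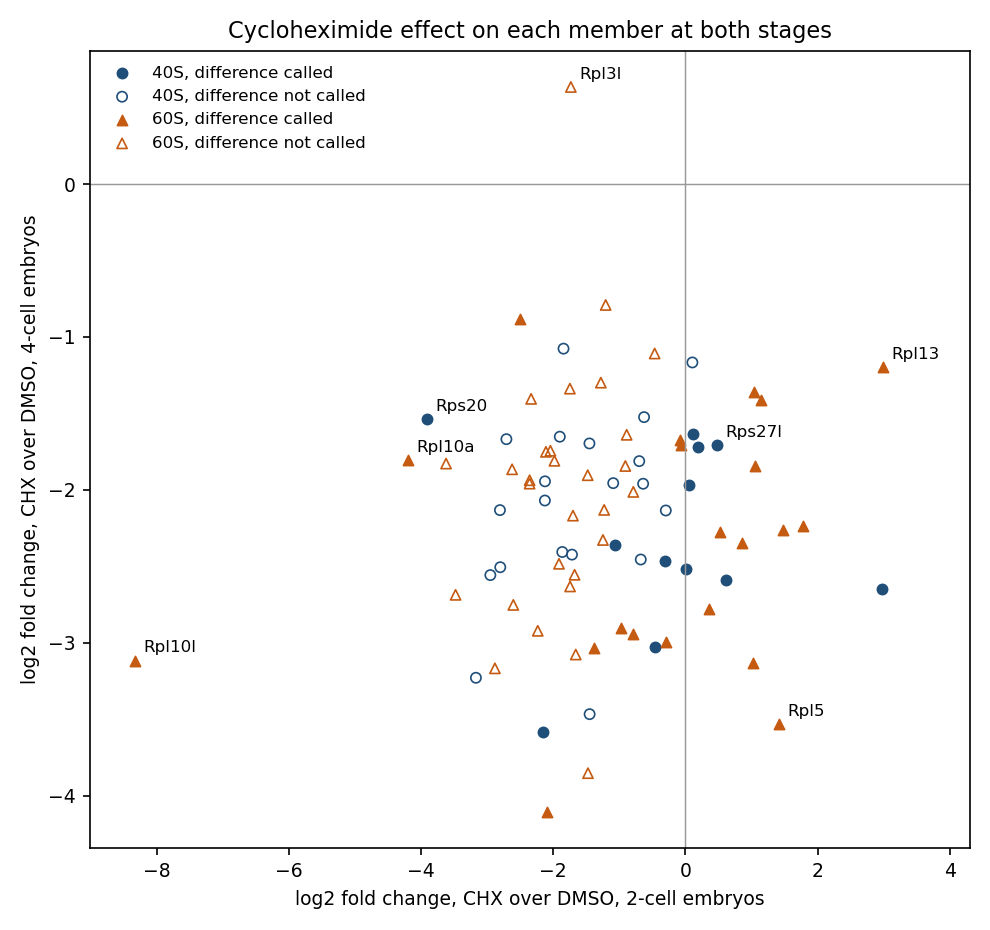
Log2 fold change with cycloheximide against vehicle at 4 cells (vertical axis) and at 2 cells (horizontal axis) for the members, 40S and 60S apart. At 4 cells 81 of 82 lie below 0, while at 2 cells they spread on both sides, with Rpl13 near 3.

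For MG132, 6 members were called higher and 20 lower in this difference, against 6.73% and 4.49% of genes. In the 40S, 4 were higher and 6 lower, and in the 60S, 2 and 14. The median was -0.26, against 0.42 over all genes. Higher were Rps19 (3.77 ± 0.82, adjusted p = 0.00702), with 1929 and 2590.3 CPM at 4 cells with MG132 and 2165 and 2502 CPM with the vehicle, Rps3 (3.11 ± 0.68, adjusted p = 0.00728) and Rpl10l (2.99 ± 0.80, adjusted p = 0.0231). Lower were Rpl36 (-4.02 ± 0.68, adjusted p = 0.00145), Rpl5 (-3.61 ± 0.46, adjusted p = 0.000275) and Rpl36a (-3.18 ± 0.80, adjusted p = 0.0165). The count of 26 was 12 without the second MG132 library and 14 without the first vehicle library of the 2-cell stage, and with genes alone in the scaling 9 were called higher and 17 lower. For aphidicolin, edgeR called 0 members higher and 0 lower, with 0% and 0% of genes. With no adjustment, 13 were higher and 4 lower at p under 0.05, and DESeq2 called 4 higher and 0 lower, both without a matching share over all genes. The lowest adjusted p was 0.0921, the median was 0.43, against 0.15 over all genes, and leaving out the second aphidicolin library of the 2-cell stage called 2 members.

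In stem cells cycloheximide had 1 member called higher and 1 lower than the vehicle, with 13.6% of genes called higher and 13.4% lower, but 76 of 82 had a positive change. The median was 0.23, against -0.04 over all genes. Rpsa had 4519 and 4204 CPM with cycloheximide and 3016 and 3071 CPM with the vehicle (0.43 ± 0.12, adjusted p = 0.0388). Rpl39l had 17.9 and 16.3 CPM with cycloheximide and 29.4 and 32.5 CPM with the vehicle (-0.95 ± 0.16, adjusted p = 0.00587). Neither call survived leaving out any 1 library, with adjusted p of 0.150 to 0.258 for Rpsa and 0.0526 to 0.0919 for Rpl39l. With DESeq2 size factors 2 were called higher and 1 lower, and with the members out of the scaling 3 higher and 1 lower. Rplp1, the highest member per length in vehicle stem cells, had 2496 and 2270.1 CPM with cycloheximide and 1942 and 1965 CPM with the vehicle (0.20 ± 0.22). Stem cells and embryos were not compared in a test, since kit and system cannot be told apart.

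MG132 in stem cells had 0 members called higher and 0 lower by edgeR, with 1.9% of genes called higher and 1.34% lower. With no adjustment, at p under 0.05, there were 3 higher and 1 lower, with no matching share over all genes. DESeq2 called 0 higher and 0 lower, and the lowest adjusted p by edgeR was 0.124. The median was -0.20, against -0.01 over all genes. These counts depended on which MG132 library was kept: without the first MG132 library 6 were called higher and 57 lower, and without the second 11 higher and 1 lower. Rps19 shows the gap, with 854 and 268 CPM with MG132 and 702 and 679.6 CPM with the vehicle, and so does Rps27a, with 1069 and 431 CPM with MG132 and 874 and 873 CPM with the vehicle. Fibroblast markers summed to 636 and 629 CPM with cycloheximide, 681 and 657 CPM with MG132 and 1145 and 1394 CPM with the vehicle, and their part was not tested.

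Growing oocytes of the H3.3K4M and H3.3WT genotypes differed in few members. There were 6 called higher and 0 lower among 81 tested, 3 of the 40S and 3 of the 60S subunit, with 8.64% of genes called higher and 13.7% lower. The median was 0.03, against 0.00 over all genes. Rps23 had 232 and 219 CPM in H3.3K4M and 103 and 94.7 CPM in H3.3WT oocytes (1.23 ± 0.17, adjusted p = 0.000259), a call kept in every fit run. Rps2 had 153 and 163 CPM in H3.3K4M and 87.4 and 96.5 CPM in H3.3WT oocytes (0.81 ± 0.16, adjusted p = 0.00359), lost without the first H3.3WT library (0.0592). Rpl27a had 23.0 and 29.1 CPM in H3.3K4M and 19.3 and 16.0 CPM in H3.3WT oocytes (0.59 ± 0.18, adjusted p = 0.0371), lost without the second H3.3K4M library or either H3.3WT library. Rpl10 (0.54), Rpl3 (0.51) and Rps20 (0.51) made up the rest. The count of 6 was 3 without the first H3.3K4M library, 1 without the first and 2 without the second H3.3WT library, and 2 with the replicate block, which took Rpl27a to an adjusted p of 0.129. It was 8 without the second H3.3K4M library, and with the crossed replicate block, added after seeing the data, 21, with 18 higher and 3 lower.

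Genes that make and use ribosomes were mostly higher at 4 cells as well. In vehicle 4-cell against vehicle 2-cell embryos, 65 of 66 ribosome biogenesis genes were called higher and 0 lower (median 3.59), 14 of 14 tested of RNA polymerase I, which transcribes ribosomal RNA, 19 of 21 elongation and other TOP-type genes (3.21) and 23 of 30 initiation factors (2.13). Of 78 ribosomal proteins of the mitochondrial ribosome, 54 were called higher and 3 lower (1.94), and of 26 regulators of TOP messages 7 were higher and 10 lower (-0.39). The median of all genes was -0.57, with 19.6% of genes called higher and 29.4% lower. With cycloheximide at 4 cells, 0 biogenesis genes were called higher and 44 lower (-1.42), 15 of 21 elongation and other TOP-type genes were lower (-1.57), 18 of 30 initiation factors were lower (-1.17), and of the mitochondrial ribosomal proteins 1 was higher and 36 lower (-1.25). With MG132 at 4 cells 36 mitochondrial ribosomal proteins were called lower and 0 higher (-1.51), against 26 lower of the 82 cytosolic ones. Over all genes at 4 cells, 8.77% were called higher and 10.3% lower with cycloheximide, and 3.06% higher and 4.33% lower with MG132.

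At 2 cells more biogenesis genes were called higher than lower with both drugs. With cycloheximide 27 of 66 were called higher and 7 lower (median 0.72), with 11% of all genes called higher and 13% lower, and with MG132 19 were higher and 2 lower (0.83), with 5.1% and 4.68% of all genes. Of 78 mitochondrial ribosomal proteins, 9 were called higher and 12 lower with cycloheximide, shares near those over all genes, and 11 higher and 0 lower with MG132. In stem cells cycloheximide had 0 biogenesis genes called higher and 24 lower (-0.31), with 13.6% and 13.4% of all genes, while the cytosolic family had a median of 0.23. In vehicle 2-cell embryos against 8-week MII oocytes 11 biogenesis genes were called higher and 24 lower (-0.46), with 10.1% and 10.1% of all genes.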

How the data were processed

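RNA was read in 32 libraries, 2 in each of 16 groups taken from the labels. The authors deposited whole-number counts per gene and per repeat family; cutadapt 1.16, STAR and mm10 are named per the submitters' processing notes. For the counter, annotation, strand setting and multi-mapping reads, the choice made is not given in the sources used here. Libraries held 14313718 to 34713159 counts. Of 55335 gene rows, 55154 matched a GENCODE gene without the version of the ID and 54587 with it; 1153 repeat rows entered library sizes and scaling. The 82 members and the lists were chosen with earlier results of these data known.

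From the deposited counts, CPM and RPKM were computed as defined above, and edgeR 4.0.16 (R 4.3.3) fitted quasi-likelihood models in 7 sets of groups, with filterByExpr (minimum count 10, minimum total 15), TMM scaling over genes and repeats and robust dispersions. Benjamini-Hochberg adjustment ran over all genes tested, with a threshold of 0.05. Of the members, 81 passed the filter in P14 oocytes, 80 in MII oocytes and 82 elsewhere. Each comparison took its groups from 1 set; the differences between stages used the 18 embryo libraries. Alternatives were DESeq2 1.42.0, its size factors, no filter, genes alone, members out of the scaling, a replicate block and leaving out each library. On simulated data, a log2 change of 2 was recovered for 96% of the changed genes in 12-month against vehicle 2-cell embryos (20337 genes tested). In vehicle 2-cell embryos against MII oocytes it was 99% (20626 genes). For a change of 1 it was 15% and 34%. The simulation gave all genes the same dispersion and changed only well-counted genes, so these rates may not hold for the real spread. With aphidicolin at 2 cells, for example, Rps19 stood at -2.72 ± 0.74 and was not called by edgeR (adjusted p = 0.211).

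Same-numbered libraries of the drug and vehicle groups at 2 cells deviated together, with correlations of 0.213 to 0.424 over 8223 genes in all 6 pairs of groups, which comes from the data, not from a label. Values and calls are from fits without a replicate block, at 2 cells too, unless an alternative is named; with the block, aphidicolin, cycloheximide and MG132 at 2 cells had 2, 48 and 27 members called, against 0, 40 and 21 without it. Elsewhere the numbers did not pair all groups of a set. In stem cells the correlation was 0.207 between cycloheximide and vehicle, but 0.0910 between cycloheximide and MG132 and 0.0468 between MG132 and vehicle. At 4 cells it lay between -0.0557 (aphidicolin and vehicle) and 0.135 (aphidicolin and cycloheximide). Named genes were, in each comparison, up to 3 called members with the largest increase and 3 with the largest decrease, at 10 CPM or more in the higher group and with groups that do not overlap, the 3 highest and 3 lowest members per length in each stage, a set of paralogue pairs, stalk genes and well-known members, and members of counts of 5 or fewer. Others, such as Rpl8, Rpl12, Rpl4 and Rpl37a, were named after their values were seen. Some members that the rule names are not reported here.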

Additional observations from a re-analysis of the deposited data

Results flagged for a closer look

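The effects of cycloheximide and MG132 differed between the stages by a test of the difference itself, as effect at 4 cells minus effect at 2 cells in edgeR's fit of the 18 embryo libraries. For cycloheximide 33 members passed. Rpl10l stood at 5.25, Rpl10a at 2.44 and Rps20 at 2.41, all with a more negative effect at 2 cells. Rpl5 stood at -4.89 and Rpl13 at -4.14, both called higher at 2 cells and lower at 4 cells. For MG132 26 members passed. Rps19 stood at 3.77, Rps3 at 3.11 and Rpl10l at 2.99, and Rpl36 at -4.02, Rpl5 at -3.61 and Rpl36a at -3.18. The value of Rpl10l for cycloheximide rests on 1 count, and Rpl36a lost its call without any of 3 single libraries. With 2 libraries a group, no group was large enough to look for a library far from the others.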

How the results depend on the processing

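The 81 members higher in 4-cell than in 2-cell embryos and the 80 lower with cycloheximide at 4 cells kept their direction, and their counts stayed within 1.5 times, under the alternatives run. Other counts moved, and the cause was not tested. With DESeq2 the calls were 2 at MII, 1 in 12-month 2-cell embryos, 18 with aphidicolin and 34 with MG132 at 2 cells, 50 with MG132 at 4 cells, 5 with cycloheximide in stem cells and 4 in the aphidicolin difference between stages. With no filter they were 2 at MII, 1 in 12-month 2-cell embryos, 10 with aphidicolin at 2 cells, 46 with MG132 at 4 cells, 5 with cycloheximide in stem cells and 8 in the aphidicolin difference. Cycloheximide in stem cells gave 4 with the members out of the scaling, and the step from MII to 2 cells at 12 months 17 with genes alone.

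With the replicate block the calls were 2 for H3.3K4M, 2 for aphidicolin at 2 cells and 1 for cycloheximide in stem cells; it moved no other count of calls by over 1.5 times. At P14 and MII the numbers correlated below -0.1 (-0.405 and -0.180), and the crossed replicate block, added after seeing the data, gave 21 calls for H3.3K4M.

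Leaving out 1 library gave 1 to 8 calls for H3.3K4M, 0 to 4 at MII, 0 to 1 with aphidicolin, 22 to 33 with cycloheximide and 4 to 18 with MG132 at 2 cells, 13 to 19 with MG132 at 4 cells, 0 with cycloheximide and 0 to 63 with MG132 in stem cells, 9 to 18 from MII to 2 cells at 12 months, and 0 to 2 and 12 to 25 in the aphidicolin and MG132 differences. Over the named genes and alternatives, 469 calls kept their side of the threshold, 49 were lost and none turned in sign. The 40S share, 18.7 points lower in 4-cell than in 2-cell vehicle embryos, was -9.47 points without division by length and turned to 8.82 without paralogue pairs and 10.05 without Rps27l. With pseudogenes, the difference in share of counts was 9.93 points. At 2 libraries a group and 14313718 counts or more, low members such as Rpl3l and Rpl10l are limited by their counts, and a log2 change of 1 was seldom recovered on simulated data.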
